A study of Homo sapiens with 16 samples.

Results

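p53 binding after Nutlin treatment was compared between MCF10A cells and MCF10A cells carrying the G12V HRAS oncogene, using the 4 p53 peak lists of the series. Each list was ranked by the −log10 q of its peaks and cut to the length of the shortest list, which left 477 peaks per library and 1908 of the 5699 deposited p53 peaks (the series holds 76863 peaks over both of its factors and 16 samples). Merging kept peaks that shared 1 bp or more gave 849 sites. A site held by both MCF10A lists and neither G12V list is called an MCF10A-only site, the opposite case is a G12V-only site, and a site held by every list is a shared site. These names describe lists of equal length and not the absence of binding.

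MCF10A is a non-tumorigenic human mammary epithelial cell line, used here as the parental cells. G12V cells are the same line after lentiviral transduction with an HRAS G12V expression vector together with a GFP vector and hygromycin selection, and no cloning step is described, so they stand for a selected population. Per the labels, the cells of all 4 p53 libraries received Nutlin before formaldehyde fixation, and p53 was precipitated with the DO-1 antibody. Each cell type had 2 libraries, which the study's methods call biological replicas, and each peak list was called on 1 library. The peak names inside the list deposited for G12V replicate 1 carry the word old and a replicate number of 2, for an unknown reason. The study's reporting summary gives G12V replicate 1 477 peaks, the length of this list. The number of aligned reads it gives for that library is near the 9.26 M reads recovered from fold and p. The list was therefore taken as that of G12V replicate 1, and every G12V-only site and every G12V mean rests on it in part.

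p53 is a transcription factor that binds DNA as a tetramer, over a pair of adjacent 10-base elements with an invariant C and G in each. MDM2, a ubiquitin ligase and itself a p53 target, keeps p53 levels low, and Nutlin blocks the contact between the proteins so that p53 accumulates. Stabilised p53 activates genes of cell cycle arrest, apoptosis, DNA repair and its own feedback control. AP-1, a dimer of FOS and JUN family proteins that binds TGACTCA or, read on the opposite strand, the word TGAGTCA, is a known nuclear endpoint of RAS signalling.

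The following stretches were read from the GRCh37 plus strand at or next to the summits of shared, MCF10A-only and G12V-only sites, so that the binding elements can be compared. Capitals mark the best 20-base match to the p53 motif and, in MROH2B, also an AP-1 word. The first set holds shared sites at CDKN1A (chr6:36644221-36644250), MDM2 (chr12:69202683-69202742) and IER5 (chr1:181104258-181104317), which had 2, 2 and 0 mismatches at positions other than the invariant C and G.
CDKN1A: gtcagGAACATGTCCCAACATGTTGagctc
MDM2: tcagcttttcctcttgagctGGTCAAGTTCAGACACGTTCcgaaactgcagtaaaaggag
IER5: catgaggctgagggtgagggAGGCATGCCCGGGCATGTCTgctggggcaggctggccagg
The MCF10A-only set holds TRPM1 (chr15:31443028-31443087, 1 mismatch), FMN1 (chr15:33437908-33437967, 0 mismatches) and MDM4 (chr1:204494154-204494213, 2 mismatches), all intronic.
TRPM1: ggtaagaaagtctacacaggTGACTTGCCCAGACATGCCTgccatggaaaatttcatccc
FMN1: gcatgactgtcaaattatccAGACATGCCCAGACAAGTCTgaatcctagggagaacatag
MDM4: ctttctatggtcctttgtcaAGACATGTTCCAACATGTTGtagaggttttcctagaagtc
The G12V-only set holds BBC3 (chr19:47734560-47734616, intronic, 3 mismatches), FAS (chr10:90751061-90751090, with the summit in a UTR of the overlapping genes FAS and ACTA2, 2 mismatches), CCNG1 (chr5:162864912-162864971, intronic, 1 mismatch) and MROH2B (chr5:41122719-41122868, intergenic, 1 mismatch).
BBC3: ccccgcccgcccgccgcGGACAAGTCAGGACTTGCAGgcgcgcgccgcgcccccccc
FAS: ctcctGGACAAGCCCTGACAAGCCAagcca
CCNG1: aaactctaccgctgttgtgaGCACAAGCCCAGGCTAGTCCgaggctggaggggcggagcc
MROH2B: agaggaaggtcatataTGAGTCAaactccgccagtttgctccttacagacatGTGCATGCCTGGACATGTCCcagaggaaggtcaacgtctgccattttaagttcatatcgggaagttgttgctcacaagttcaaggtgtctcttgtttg
The promoter site of E2F7 (chr12:77459740-77459889) is shown because it was G12V-only and held no match with each invariant C and G in place and at most 3 mismatches elsewhere. A copy with a changed C or G there would not be found by this search.
E2F7: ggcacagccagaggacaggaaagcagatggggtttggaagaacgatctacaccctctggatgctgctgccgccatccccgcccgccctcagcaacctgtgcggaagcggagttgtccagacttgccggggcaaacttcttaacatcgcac

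Of the 849 sites, 195 (23%) were shared, 96 (11.3%) were MCF10A-only and 83 (9.78%) were G12V-only. The 4 combinations of 1 MCF10A with 1 G12V library alone held 6 to 17 sites each. Sites of a single list numbered 62 and 88 for MCF10A replicates 1 and 2 and 80 and 76 for G12V replicates 1 and 2. Of the sites held by 3 lists, those missing from MCF10A replicate 2 were the most frequent (48 sites, against 25 to 27 for the other combinations of 3).

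**Figure D1:**
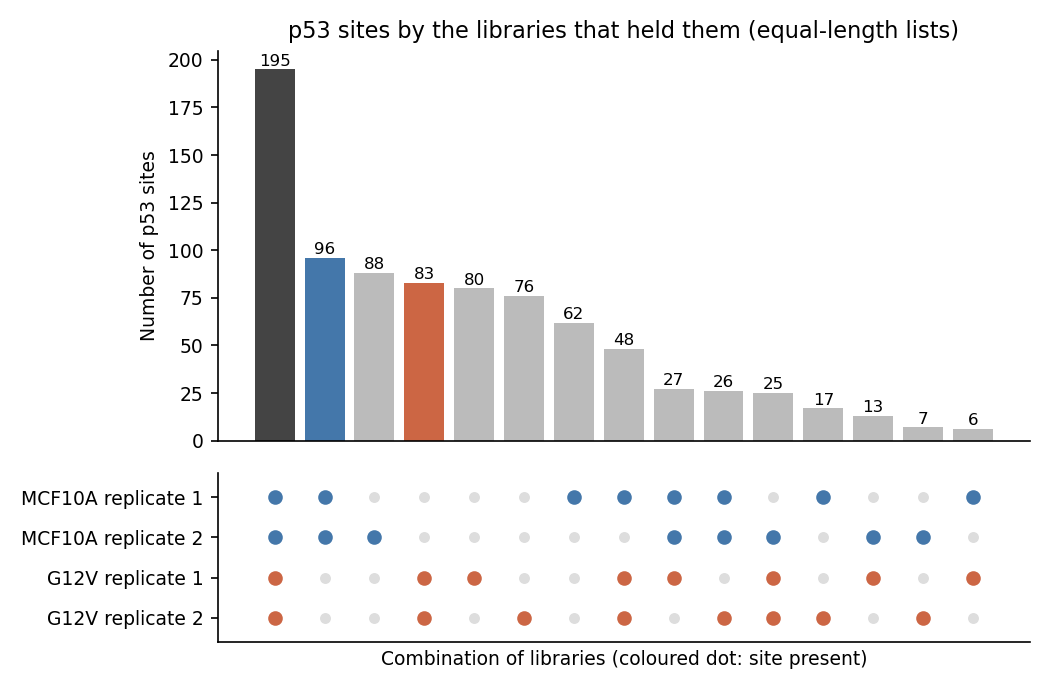
Number of p53 sites (bars, top) for each combination of libraries that held them (coloured dots, bottom) in lists of 477 peaks. The 195 shared sites form the tallest bar, the 96 MCF10A-only and 83 G12V-only sites stand in blue and orange, and no combination of 1 MCF10A and 1 G12V library exceeds 17 sites.

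The shared sites with the smallest sums of ranks lay nearest to IER5, an immediate early response gene, PLXDC1, the unnamed gene ENSG00000284188, PAPPA, which encodes a metalloproteinase that cleaves IGF-binding proteins, and CDKN1A, which encodes the cell cycle inhibitor p21. At the CDKN1A site, 7 bp from a transcription start site (TSS), MCF10A replicates 1 and 2 had a fold enrichment of the summit over the local background of 37.3 and 19.2, and G12V replicates 1 and 2 one of 26.1 and 76.8, with ranks of 13, 27, 11 and 3. The CDKN1A site was thus within the first 27 peaks of every library, with values that overlapped between the cell types.

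The 10 MCF10A-only sites with the smallest rank sums lay far from promoters. They were nearest to TRPM1, CCDC158, BTG3, SUPT3H, CNTN3, TMEM174, FMN1, EVC, TTC32 and HS3ST4, at 4962 bp (BTG3) to 434164 bp (CNTN3) from the TSS. The sites near TRPM1 (a cation channel), CCDC158, BTG3 (an anti-proliferative BTG family member), FMN1 (a formin that nucleates actin filaments) and EVC were intronic, and the other 5 were intergenic. Each of the 10 carried a p53 motif with at most 2 mismatches, and 1 of them, EVC, also an AP-1 word. The leading one, in TRPM1, had a fold enrichment of 29.2 and 23.9 (ranks 56 and 31) in MCF10A, had no peak in G12V replicate 1 and had 14.6 at rank 701 in G12V replicate 2. The better ranks in MCF10A follow from the rule of the class, and the lists differ in length.

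The 10 leading G12V-only sites were nearest to MROH2B, FHL2, RANBP3L, SCHIP1, BBC3, ACTBL2, ACTA2 with FAS, GALNT17, TMEM250 and E2F7. Of these, the sites at BBC3 (179 bp from the TSS), ACTA2 and FAS (55 bp from a TSS of ACTA2) and E2F7 (466 bp) were at promoters. BBC3 encodes PUMA, a BH3-only protein that triggers apoptosis, FAS encodes a death receptor, and E2F7 encodes a repressor of cell cycle genes. The BBC3 site had a fold enrichment of 12.8 and 33.1 (ranks 128 and 92) in G12V and of 7.99 at rank 1072 in MCF10A replicate 1, and had no peak in MCF10A replicate 2. At the FAS promoter the values were 12.8 and 29.9 (ranks 126 and 150) in G12V and 11.5 and 4.39 (ranks 591 and 831) in MCF10A. The ranks of both promoters part the cell types by the rule of the class. The fold enrichments of FAS parted them by a small margin, 12.8 against 11.5. The E2F7 site had 11.2 and 27.7 (ranks 169 and 181) in G12V and no peak at any rank in MCF10A. FHL2, which encodes a LIM domain cofactor, held an intronic site with 18.4 and 26.3 in G12V and 9.34 and 4.35 in MCF10A.

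Most of these sites were called in the other cell type further down. Of the 96 MCF10A-only sites, 90 (93.8%) had a peak in the deposited list of G12V replicate 2, at a median rank of 861.5 out of 2619. None could appear in the list of G12V replicate 1, which was already at its full length. Of the 83 G12V-only sites, 66 (79.5%) had a peak in MCF10A replicate 1, at a median rank of 751 out of 1718, and 23 (27.7%) in the shorter list of replicate 2. Only 6 MCF10A-only and 16 G12V-only sites had no peak of the other cell type at any rank. The equal-length comparison is therefore one of order within a list for the most part.

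**Figure D2:**
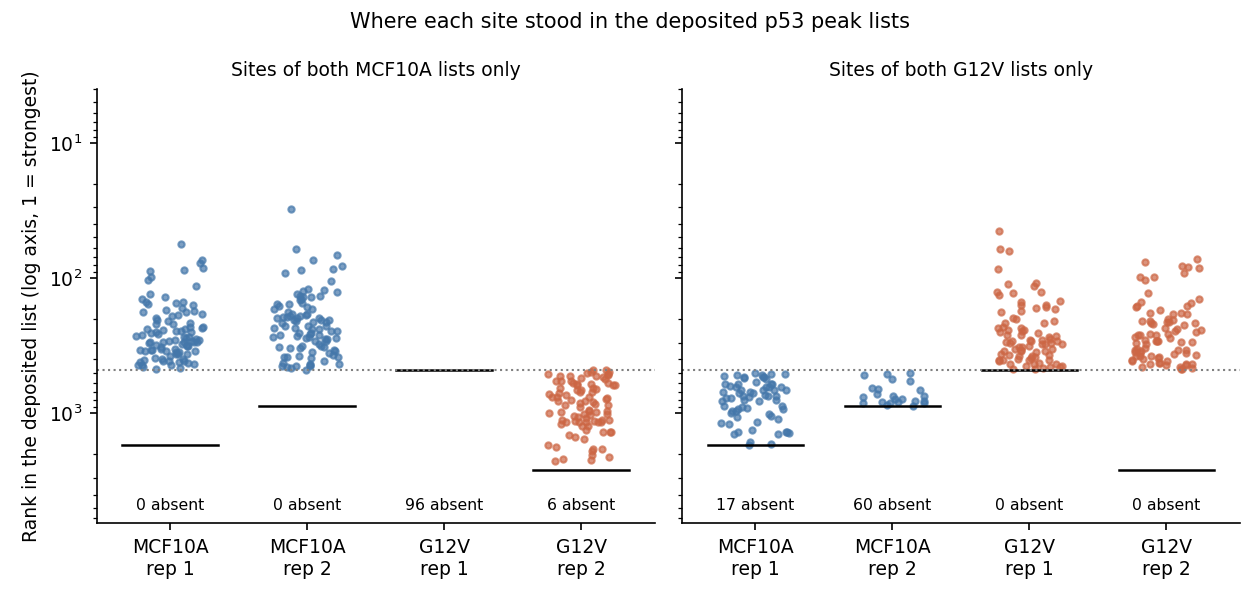
Rank (log axis, 1 at the top is the strongest) of the 96 MCF10A-only and 83 G12V-only sites in each deposited list, with 1 point per site, a dotted line at rank 477 and a black bar at the end of each list. In the lists of the other cell type most sites sit below the dotted line, with 6 absent from G12V replicate 2, 17 from MCF10A replicate 1 and 60 from MCF10A replicate 2.

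The 6 MCF10A-only sites absent from both G12V lists were nearest to LSMEM1, ANXA2, CDH8, FAM120B, LITAF and ADARB2, and all 6 carried a p53 motif and lay outside promoters. The 16 G12V-only sites absent from both MCF10A lists included the promoters of E2F7 and SERPINB5 and sites near ACTBL2, ARID3A, SYT16, TKT and LGR6 (named after their values were seen). The ACTBL2 site had fold enrichments of 10.6 and 37.1 in G12V. SERPINB5 encodes maspin, a serpin of normal mammary epithelium, and its site, 207 bp from the TSS, had 7.95 and 13.9 (ranks 334 and 439). The depth of the lists limits this count, since a site below the caller's threshold is not shown to be unbound.

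Known p53 target genes had more sites close by in the G12V lists than in the MCF10A lists. Of 68 target genes in 5 lists (feedback, cell cycle arrest, apoptosis, DNA repair, and metabolism with autophagy), 16 had a kept peak within 25 kb of a TSS in each MCF10A library (23.5% in both). In G12V replicates 1 and 2 the numbers were 26 and 27 (38.2% and 39.7%), so the libraries of the cell types did not overlap. Over all 19794 protein-coding genes the numbers were 276 and 280 (1.39% and 1.41%) in MCF10A and 321 and 322 (1.62% and 1.63%) in G12V.

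By class, 12 of the 68 target genes had a shared site, 7 had a G12V-only site and 1 had an MCF10A-only site. Over all protein-coding genes these classes reached 108 genes (0.546%), 66 genes (0.333%) and 55 genes (0.278%). The 7 genes with a G12V-only site were BBC3, FAS, BCL2L1, BTG2, E2F7, PCNA and CCNG1, and the gene with an MCF10A-only site was MDM4. Other target genes had sites held by other combinations of libraries, so these lists do not sum to the genes of a library.

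In the feedback list, MDM2 and TRIM22 had shared sites. The MDM2 site, 33 bp from a TSS in an intron, had fold enrichments of 34.6 and 11.4 in MCF10A and of 29.2 and 65.1 in G12V. MDM4, which encodes a p53-binding paralogue of MDM2 that restrains its activity, had its MCF10A-only site in an intron 431 bp from a TSS. There MCF10A reached fold enrichments of 11.1 and 11.3 (ranks 277 and 169), against 5.48 at rank 1163 in G12V replicate 2, with no peak in G12V replicate 1. At MDM4 the local background of G12V replicate 2 was 5.01 times the genome-wide rate and that of MCF10A replicates 1 and 2 was 3.95 and 2.27 times, and the part of this background in the difference was not tested. CCNG1, which encodes cyclin G1, had its G12V-only site 320 bp from the TSS, with 5.95 and 18 in G12V and 8.36 and 5.93 in MCF10A. The CCNG1 ranks, 374 and 335 against 672 and 726, part the cell types by the rule of the class, and the fold enrichments overlapped. TP53INP1, which encodes a stress-induced cofactor of p53 and stands in the feedback and metabolism lists, had a site in G12V replicate 2 alone.

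In the cell cycle list, 6 of 14 genes had a shared site, namely CDKN1A, GADD45A, PLK2, PLK3, ZMAT3 and GDF15. BTG2, an anti-proliferative p53 target, and E2F7 had G12V-only sites, and none of the 14 had an MCF10A-only site. The BTG2 site lay in an intron 1183 bp from the TSS, with a fold enrichment of 5.95 and 15.0 in G12V and of 8.47 at rank 792 in MCF10A replicate 1. PRDM1 had a site in all libraries but MCF10A replicate 2.

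In the apoptosis list, 6 of 20 genes had a kept peak in each G12V library (BBC3, BAX, FAS, TNFRSF10B, AEN and BCL2L1), against 2 of 20 in each MCF10A library (BAX and AEN in replicate 1, TNFRSF10B and AEN in replicate 2). AEN, which encodes a nuclease of apoptotic DNA digestion, was the only one with a shared site. BAX, the pore-forming effector of mitochondrial apoptosis, had a fold enrichment of 17.4 and 45.7 (ranks 73 and 54) in G12V and of 11.8 and 7.56 (ranks 443 and 507) in MCF10A, which just missed the list of MCF10A replicate 2. The death receptor gene TNFRSF10B stood at ranks 68 and 204 in G12V and at 545 and 431 in MCF10A. BCL2L1, which also encodes the survival protein BCL-XL, had a G12V-only site in an intron 23099 bp from the TSS, without a p53 motif.

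In the DNA repair list, DDB2, RRM2B and RPS27L had shared sites, and PCNA, the replication clamp, had a G12V-only site 258 bp from the TSS. The PCNA ranks were 306 and 359 in G12V and 675 and 503 in MCF10A, a split set by the rule of the class. Its fold enrichments overlapped, at 7.44 and 15.1 in G12V and 10.9 and 8.21 in MCF10A. Of the 12 repair genes, 7 and 6 had a kept peak in the G12V libraries and 4 in each MCF10A library. REV3L and TRIAP1 were held by both G12V lists and 1 MCF10A list, and POLH, which encodes a translesion polymerase, by G12V replicate 1 alone. The metabolism and autophagy list had no gene with a shared, MCF10A-only or G12V-only site among its 15, and GPX1, SESN1 and TP53INP1 were held by other combinations.

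In the remaining lists 5% to 15.4% of the genes had a site of any combination of libraries within 25 kb, against 2.83% (560) of all 19794 protein-coding genes. Among 27 genes of basal epithelial adhesion and keratins, SERPINB5 had a G12V-only site and ITGA3 a site in G12V replicate 2. Among 22 genes of epithelial-mesenchymal transition and invasion, VIM, the mesenchymal intermediate filament vimentin, had an MCF10A-only site 18198 bp from its TSS, and 0 had a G12V-only site, while TGFBI and PLAU had sites in a single list each. The VIM site ranked 367 and 349 in MCF10A and 495 in G12V replicate 2, so it lay just outside the kept part of that list. Among 26 genes of the actin cytoskeleton, ACTN1 (alpha-actinin) had an MCF10A-only site, ARHGEF3 a shared one, and RHOC and EPS8L2 sites in other combinations. In the AP-1 family, ATF3 had a shared site and FOSL1 a site in G12V replicate 2, and of 20 genes of RAS-MAPK feedback only IER3 had a site, also in G12V replicate 2. These lists and the target gene lists were drawn up with earlier results of these data known, and their counts are a description.

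Promoters were taken as the 1000 bp before and 500 bp after the TSS of a protein-coding gene, and overlapped 5.03% (95% interval 3.25% to 7.39%) and 5.87% (3.94% to 8.37%) of the kept peaks in the MCF10A libraries. In the G12V libraries the share was 9.22% and 9.85%. MCF10A averaged 5.45% ± 0.593 and G12V 9.54% ± 0.445 (SD, n = 2 each). The gap of 4.09 percentage points exceeded the replicate spread (two-sided exact permutation test, p = 0.333, the smallest that 2 against 2 libraries can give). Kept peaks were wider in G12V replicate 2 (median 552 bp) than in the other libraries (228 to 380 bp). Placing the summit alone in promoters gave 4.61% and 5.24% for MCF10A and 8.39% and 8.60% for G12V. At calling, the G12V libraries were the shallowest and the deepest of the set, at 9.26 M and 23.9 M reads (a depth recovered from fold and p). The MCF10A libraries lay between them at 21.4 M and 20.1 M. The reads of G12V replicate 2 had been scaled down for calling, so its value is below its own depth. The part of depth in the promoter gap was not tested.

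Of the 83 G12V-only sites, 12 were at promoters (14.5%, interval 7.70% to 23.9%), of 96 MCF10A-only sites 4 (4.17%, 1.15% to 10.3%), and of 195 shared sites 15 (7.69%). Besides BBC3, FAS with ACTA2, E2F7, PCNA, CCNG1 and SERPINB5, the G12V-only promoters were those of FBXO22 (an F-box protein), DCP1B (an mRNA decapping factor), FBXL5 with FAM200B (FBXL5 is an iron-sensing F-box protein), CYGB (cytoglobin), EDA2R (a receptor of the TNF receptor family) and CPEB2 (a regulator of mRNA translation). The FBXO22 site, 34 bp from the TSS within coding sequence, had a fold enrichment of 10.8 and 24.8 in G12V and of 9.58 and 5.22 (ranks 812 and 835) in MCF10A. The MCF10A-only promoters were those of MDM4, MSGN1, ZNF524 with FIZ1, and MRPL27, and each had a peak in G12V replicate 2, at ranks 677 to 1163. Of the 12 G12V-only promoter sites, 7 carried a p53 motif and 5 (E2F7, FBXO22, FBXL5, PCNA and SERPINB5) did not, against 3 with and 1 without (MSGN1) among the 4 MCF10A-only ones.

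**Figure D3:**
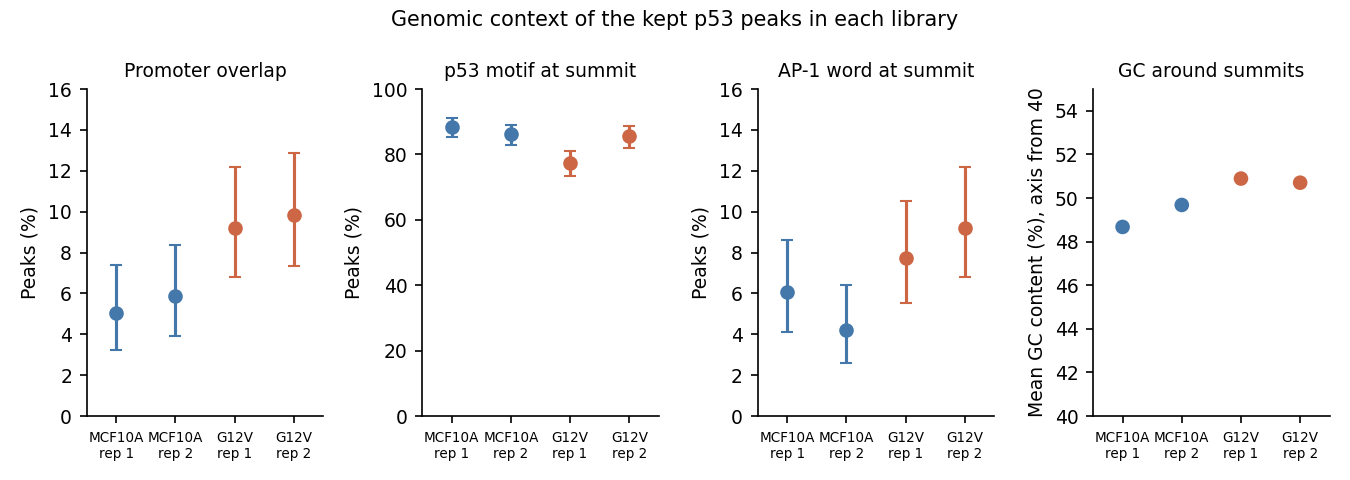
Share of the 477 kept peaks of each library that overlapped a promoter, held a p53 motif or held an AP-1 word (points with exact 95% binomial intervals, in %), and mean GC content of 150 bp around the summit (in %, axis from 40). Both G12V libraries lie above both MCF10A libraries for promoters (9.22% and 9.85% against 5.03% and 5.87%), AP-1 and GC content, and below them for the p53 motif.

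The windows around G12V summits were richer in G and C. MCF10A windows of 150 bp had a mean GC content of 48.7% and 49.7% and G12V windows one of 50.9% and 50.7%, against 40.9% over 56708 windows spaced evenly along the genome. The difference of 1.62 percentage points exceeded the replicate spread (exact permutation test, p = 0.333). At least 5 CpG dinucleotides were present in 6.71% and 8.39% of MCF10A windows and in 14.5% and 11.5% of G12V windows. The word GGGCGG, bound by SP1 at CpG-rich promoters, occurred in 3.77% and 5.24% of MCF10A and in 8.18% and 6.92% of G12V windows (2.20% of the genome windows), again without overlap. The nearest TSS lay at a median of 32427 and 33289 bp for MCF10A peaks, and of 28358 and 28961 bp for G12V peaks. Summits lay in introns of protein-coding genes for 39.8% to 42.3% of peaks and outside such genes for 53.04% to 56.6%, over all 4 libraries.

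The p53 motif (the 20-base element with each invariant C and G in place and at most 3 mismatches elsewhere, searched in the 150 bp centred on the summit) was present in 88.5% and 86.2% of MCF10A peaks and in 77.4% and 85.5% of G12V peaks. It occurred in 0.596% of the genome windows, far below its share at the summits of every library. The G12V mean was lower by 5.87 percentage points (87.3% ± 1.63 against 81.4% ± 5.78, SD, n = 2 each; exact permutation test, p = 0.333). This difference rested on G12V replicate 1, since it was -1.78 points without that library, with the G12V replicate 2 share of 85.5% next to 86.2% in MCF10A replicate 2. The fragment length of G12V replicate 1, taken as the width of its narrowest peak, was 279 bp (113 to 180 bp in the others). Its motifs lay a median of 18 bp from the summit, against 9 to 12 bp. Windows of 300 bp held a motif at 88.9% and 87.2% of MCF10A and at 85.3% and 86.2% of G12V peaks. The part of summit position in the motif shares was not tested.

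Among the classes, the motif was found in 80 of 96 MCF10A-only sites (83.3%, interval 74.4% to 90.2%), in 69 of 83 G12V-only sites (83.1%, 73.3% to 90.5%) and in 175 of 195 shared sites (89.7%). An element with 0 mismatches was found in 58 shared sites (29.7%), in 13 MCF10A-only sites (13.5%) and in 9 G12V-only sites (10.8%). The best-matching elements were thus more frequent among shared sites, and no test was run between the classes.

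AP-1 words lay within the 150 bp of 6.08% and 4.19% of MCF10A peaks and of 7.76% and 9.22% of G12V peaks, against 2.21% of the genome windows. The difference between the means was 3.35 percentage points (5.14% ± 1.33 against 8.49% ± 1.04, SD, n = 2 each; exact permutation test, p = 0.333). Of the G12V-only sites 13 held the word (15.7%, interval 8.61% to 25.3%), of the MCF10A-only sites 5 (5.21%, 1.71% to 11.7%) and of the shared sites 11 (5.64%). Of these 13 G12V-only sites, 12 also carried a p53 motif, as in the MROH2B stretch printed above, near the share of all G12V-only sites (69 of 83, 83.1%). Among sites with the word, 4 of 5 MCF10A-only and 8 of 11 shared ones carried the motif. The 13 G12V-only sites with the word included those nearest to MROH2B, ANXA1 (526817 bp from its TSS) and NHS, with 1, 0 and 0 mismatches in their p53 motif. Those of SYT16, TKT and the CPEB2 promoter were also among them (named after their values were seen). None of the 13 had a peak at any rank in MCF10A replicate 2, whereas 23 of the 70 G12V-only sites without the word did, and in MCF10A replicate 1 the numbers were 11 of 13 and 55 of 70.

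Of the other words searched on both strands, CACGTG (an E-box) was present in 2.94% and 3.35% of MCF10A and in 1.89% and 1.68% of G12V windows, and CCAAT (bound by NF-Y) in 14.9% and 15.3% against 13.4% and 11.5%. TGTGGT (RUNX) and GGAATG (TEAD) overlapped between the cell types, with 5.24% to 7.97% and 11.9% to 14.7%. TGACGTCA (a cAMP response element) was found in 0 of 477 peaks in each library, which allows a share of up to 0.629% (3 counts). Presence of a word says nothing about binding of the factor named with it.

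A stretch of 8.35 Mb on chromosome 5 (chr5:36378545-44728698) stood apart by local background in the p53 lists of both G12V libraries and MCF10A replicate 2. It holds GDNF, PTGER4 and GHR, among other genes. It was delimited as the range of peaks with a local background of at least 5 times the genome-wide rate in G12V replicate 2. A high value in that library was therefore set in part by the rule. Background is the value the caller set under a peak, recovered from fold and p. In this stretch the median background was 11.8 times the genome-wide rate in G12V replicate 1 and 8.80 times in G12V replicate 2 (8 and 32 peaks with a recovered value), and 1.11 times in MCF10A replicate 1 (10 peaks). The single peak of MCF10A replicate 2 there had a background of 12.7 times. In the 4 CTCF libraries, which included both G12V ones, it was 1.62 to 2.27 times.

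At the site near RANBP3L that every deposited list held (chr5:36442273-36443077), the summit pileup was 65.3 and 49.9 times the genome-wide rate in MCF10A replicates 1 and 2, and 158 and 150 times in the G12V ones. Thus both pileup and background were high in G12V, and the background alone in MCF10A replicate 2. Of the 10 peaks of MCF10A replicate 1 in the stretch, 1 (10%) was found in the list of replicate 2, against 47.7% of its 1708 peaks elsewhere. The GDNF site, at rank 17 in MCF10A replicate 1 and at ranks 1 and 40 in G12V, was absent from MCF10A replicate 2. The cause of these backgrounds was not tested. The lists do not name the input each was called against, and they were not matched to the input depths that the study gives. It is therefore uncertain whether MCF10A replicate 2 was called against the input of its own cell type. Its fold enrichments, ranks and absences depend on that input.

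Of the 83 G12V-only sites, 4 lay in this stretch (MROH2B, RANBP3L and 2 sites in introns of GHR), with fold enrichments of 3.6 to 13.1 in G12V, and so did 0 of the 96 MCF10A-only and 0 of the 195 shared sites. The MROH2B and RANBP3L sites, ranked 1 and 3 among the G12V-only sites, had lower fold enrichments in G12V replicate 1 (7.44 and 5.82) than in MCF10A replicate 1 (9.87 and 12.3). With the stretch left out of every list before ranking, an alternative chosen after seeing the data, there were 95 MCF10A-only and 81 G12V-only sites, and the promoter shares differed by 4.27 percentage points.

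**Figure D4:**
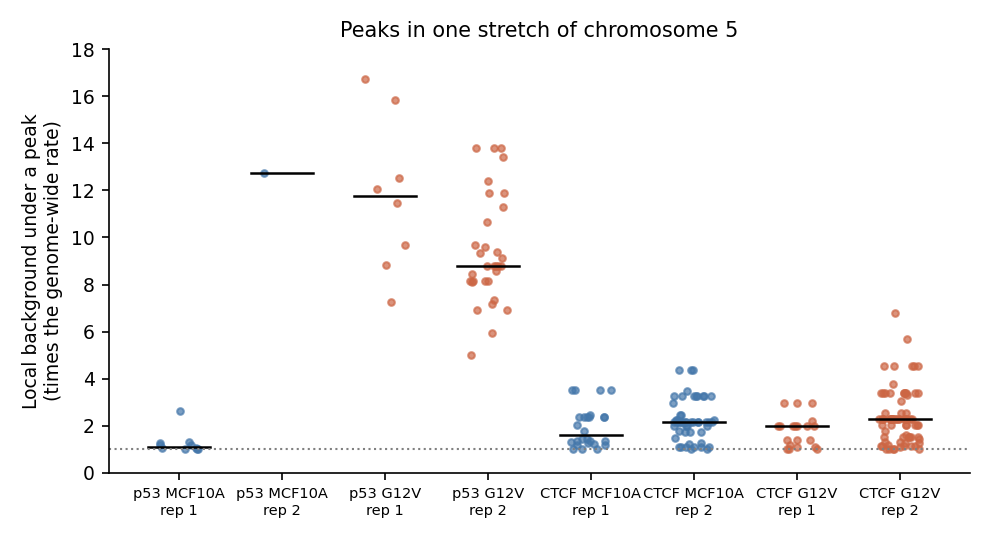
Local background under each peak of the chromosome 5 stretch, in multiples of the genome-wide rate, for the p53 and CTCF libraries (1 point per peak, bar at the median, dotted line at 1). The p53 G12V libraries have medians of 11.8 and 8.80, MCF10A replicate 2 a single peak at 12.7, and the CTCF libraries medians of 1.62 to 2.27.

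Sites with a peak in all 4 deposited lists, at any rank, allowed the strength of binding to be compared. There were 332, and their log2 fold enrichments were quantile normalised between libraries and tested with limma. Membership required a peak among the 477 of G12V replicate 1, its whole list, which ran down to a −log10 q of 2.56. This narrows the sites to those called in the shortest list. Of the 83 G12V-only sites, 22 had a peak in both MCF10A lists and could enter, whereas 0 of the 96 MCF10A-only sites could. Entry thus favoured sites that ranked higher in G12V. The difference between G12V and MCF10A passed an adjusted p of 0.05 at 12 sites (3.61% of those tested), 4 higher and 8 lower in G12V, and 71 sites had an unadjusted p under 0.05. Both G12V libraries lay above both MCF10A libraries at 87 sites (26.2%) and below them at 79 (23.8%). The number of calls rested on single libraries, since it was 0 without MCF10A replicate 2, without G12V replicate 1 or without G12V replicate 2, with 50, 47 and 47 sites at an unadjusted p under 0.05, and was 19 without MCF10A replicate 1.

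The 4 sites that were higher in G12V were nearest to FAM90A27P, FHL2, BAX and CADM2. At BAX, 283 bp from a TSS, the log2 difference was 1.43 ± 0.35 (SE; limma, adjusted p = 0.0152). At FAM90A27P, with fold enrichments of 13.4 and 5.68 in MCF10A against 24.0 and 43.5 in G12V, it was 1.72 ± 0.36 (limma, adjusted p = 0.00339). FHL2 had 1.58 ± 0.43 and CADM2, an adhesion molecule gene whose TSS was 1024333 bp away, 1.26 ± 0.34 (limma, adjusted p = 0.0284 and 0.0252). SCHIP1 and ACTA2 with FAS followed in size, at 1.38 and 1.33, and did not pass (limma, adjusted p = 0.0542 and 0.0584).

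The 8 sites that were lower in G12V were nearest to RGS8, HNRNPA3, SLC8A3, LRRC7, FER1L6, BCL2A1, STARD4 and NCAM2, at 7016 to 512503 bp from a TSS, and none was at a promoter. At RGS8, a regulator of G protein signalling, MCF10A had fold enrichments of 30.1 and 25.04 and G12V of 5.96 and 10.8, a log2 difference of -1.95 ± 0.38 (limma, adjusted p = 0.00339). The sites near HNRNPA3 and SLC8A3 differed by -1.91 and -1.73 (limma, adjusted p = 0.00339 and 0.0125). The site near LRRC7 ranked 14 and 7 in MCF10A and 153 and 158 in G12V, a difference of -1.66 ± 0.33 (limma, adjusted p = 0.00339), and that near FER1L6 ranked 5 and 9 against 249 and 272, with -1.56 ± 0.33 (limma, adjusted p = 0.00371). The LRRC7 and FER1L6 sites were thus within the first 14 peaks of both MCF10A lists.

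Among the 332 sites with a peak in every list, those near p53 target genes were mostly higher in G12V. The entry rule barred MCF10A-only sites, and its part in these counts was not tested. Some genes, such as CDKN1A, held several of the sites. Of 25 sites within 25 kb of a target gene, 22 had a positive difference, the median difference was 0.67 on the log2 scale, and in 17 both G12V libraries lay above both MCF10A libraries (26.2% of all sites did), while 1, BAX, passed the test. Over all 332 sites the median was -0.02 and 160 were positive. With median centring the target sites had a median of 0.72 and with cyclic loess 0.62, with 23 and 22 of 25 positive. The largest of those that did not pass were FAS (1.33), the CDKN1A site 9199 bp from its TSS (1.16), GPX1 (1.09), PLK3 (1.01) and TRIAP1 (0.99) (limma, adjusted p = 0.0584, 0.0749, 0.0992, 0.0674 and 0.152). The CDKN1A site at the TSS had 0.63 ± 0.35 (limma, adjusted p = 0.313) and the MDM2 intronic site 0.93 ± 0.36 (limma, adjusted p = 0.121). RRM2B, a ribonucleotide reductase subunit gene, went the other way, with -0.59 (limma, adjusted p = 0.331) and both G12V libraries below MCF10A.

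The 33 sites at promoters had a median difference of 0.47, with 27 positive and 16 without overlap above MCF10A and 1 below. The promoter sites and the target gene sites share members, so these are not separate observations. The entry rule applied to both. Fold enrichment depends on the background under a site as well as on the pileup, and the background was not modelled here.

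**Figure D5:**
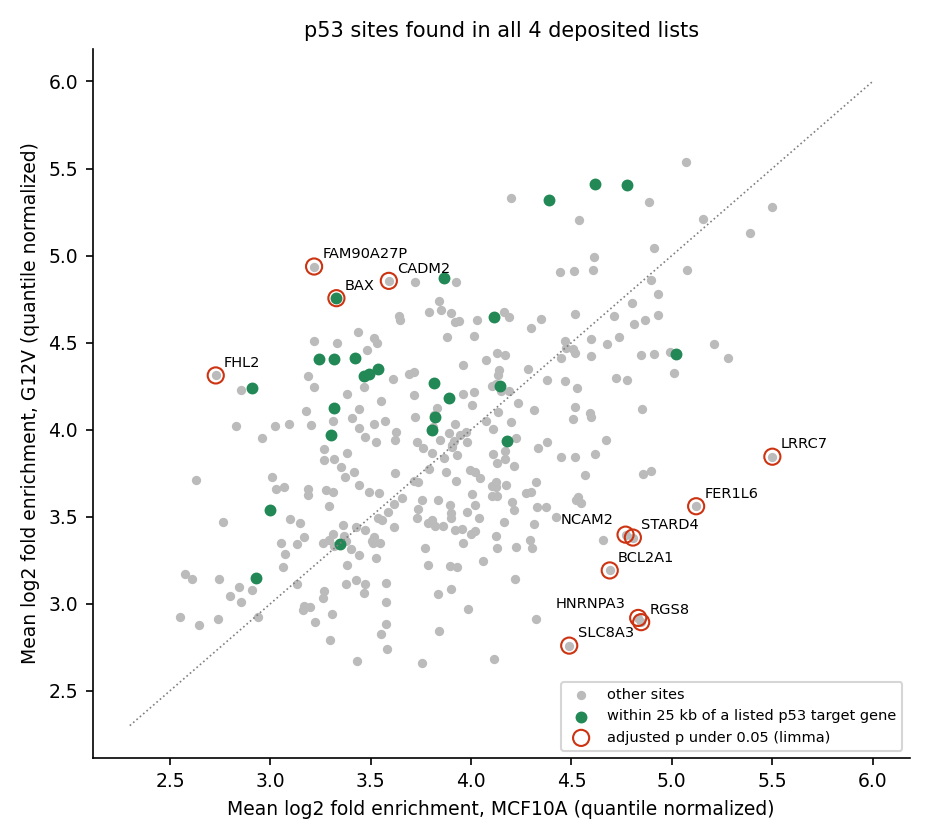
Mean log2 fold enrichment of the 332 sites found in all 4 deposited lists, MCF10A (x axis) against G12V (y axis), quantile normalised, with sites within 25 kb of a p53 target gene in green and the 12 sites with an adjusted p under 0.05 circled. Of the 25 green points 22 lie above the dotted line of equality, and 8 of the circled sites lie below it.

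The cut fell at different strengths in the 4 lists. The last peak kept had a −log10 q of 26.7 and a fold enrichment of 13.8 in MCF10A replicate 1, 10.1 and 8.69 in MCF10A replicate 2, 2.56 and 4.53 in G12V replicate 1, and 47.5 and 18.7 in G12V replicate 2. The first peak left out had the same values as the last kept in both MCF10A libraries and 47.3 and 17.3 in G12V replicate 2. G12V replicate 1 had none left out. The kept peaks had median fold enrichments of 17.6, 11.3, 8.72 and 22.9 in the order of the libraries above, so a like rank stands for a different enrichment in each.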

How the data were processed

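The authors aligned uniquely mapping reads to hg19 with Bowtie and called peaks in each library against an input with MACS2 at default settings, per the study's methods. The cell type behind the input used for MCF10A replicate 2 is uncertain, given its background on chromosome 5. The peak names of the G12V replicate 1 list are unexplained, while its length is the one that the study gives for that library. The deposited lists give, per peak and library, a score, a fold enrichment (a ratio of pileup to background), and −log10 p and −log10 q values. Sites, promoters, p53 motifs and words were derived with Python 3.11.15, pandas 2.3.3 and pysam 0.24.0 from GRCh37 and GENCODE release 44 mapped to GRCh37, and 0 p53 peaks passed a chromosome end. Summit pileup, background and calling depth were solved from fold and p for peaks with a −log10 p up to 200, for a mappable genome of 2.7 Gb. Exact permutation tests ran over the 6 assignments of the 4 libraries, and limma 3.58.1 (R 4.3.3, eBayes with a trend, Benjamini-Hochberg) over 332 sites. All 179 genes of 10 lists matched the annotation. Named sites were the 10 or 5 with the smallest rank sums, promoter sites, sites near listed genes and the 5 largest limma differences each way, by nearest TSS. Members and lists were chosen with earlier results of these data known. Intervals are exact binomial and cover counting error alone. Alternatives were ranking, list length, thresholds, windows, normalization, left-out libraries and, chosen after seeing the data, the chromosome 5 stretch, summit-only promoters and the gene window. Scripts were tested on simulated data. The CTCF lists served for their background in that stretch and for the number of peaks in the series. An overlap of p53 peaks with CTCF peaks was also computed and is not reported here. Replicate numbers were not used to pair the samples in the main test, and the check given in the closing section cannot settle whether they were paired.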

Additional observations from a re-analysis of the deposited data

Results flagged for a closer look

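The local background recovered under p53 peaks, a measure outside the comparisons of sites, was above its level in MCF10A replicate 1 over the chromosome 5 stretch. The median there was 11.8 times the genome-wide rate in G12V replicate 1 and 8.80 times in G12V replicate 2, against 1.11 times in MCF10A replicate 1. The single peak of MCF10A replicate 2 in the stretch stood at 12.7 times. Its cause was not tested.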

How the results depend on the processing

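The 5 differences in promoter share, p53 motif share, AP-1 share, GC content and distance to the TSS kept their direction in all 54 alternatives. The exact permutation test of 2 against 2 libraries, used for them, cannot pass a threshold of 0.05. The number of G12V-only sites fell from 83 to 42 with the deposited lists at full length and to 44 at a −log10 q of at least 5, where MCF10A-only sites numbered 50. With no peak of the other cell type at any rank, 6 and 16 remained by construction. Leaving out a library gave 122 to 184 MCF10A-only and 108 to 163 G12V-only sites, since fewer lists must agree. The 12 limma calls became 23 with the replicate block and 24 without the chromosome 5 stretch (1 site fewer, chosen after seeing the data, cause not tested), and 0 to 19 without a library, where the lone library of a cell type is assumed to vary like the others. Of the sites that missed the threshold, 12 had an adjusted p from 0.05 to 0.06. The deviations of the libraries numbered 1 had a correlation of 0.0553 over 332 sites. This cannot settle whether same-numbered libraries were paired, since paired libraries need not share deviations. The peak names of the G12V replicate 1 list also carry another replicate number. Target genes near MCF10A-only sites numbered 2 within 100 kb (a window also chosen after seeing the data), against 1. With 2 libraries of unequal depth and list length per cell type, absence from a list limits every count.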
